A study of Mus musculus with 7 samples.

Results

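De novo lipogenesis, the making of fatty acids from non-fat carbon, was followed here through 10 mouse genes: Acly, Acaca, Acacb, Fasn, Elovl6, Scd1, Scd2, Srebf1, Mlxipl and Thrsp. They were chosen by name, and all 10 were found among the 50226 gene names of the RNA-Seq table that had a usable locus. The table holds 7 tissues of wild-type (wt) C57BL/6 mice (C57BL/6N in the text of the study) aged 36 weeks on NCD, the labels' short name for the diet. The 3 fat depots were interscapular brown adipose tissue (BAT) and the visceral (VAT) and subcutaneous (SCAT) white depots, and the 4 other tissues were liver, kidney, cortex and skeletal muscle. Total RNA was depleted of ribosomal RNA and turned into strand-specific libraries. Each tissue was sequenced as 1 library, and the labels do not say whether a library came from 1 animal or from a pool, so no difference below has a replicate check and neighbouring tissues in an order of levels cannot be separated by their spread. The unit throughout is FPKM, in which the fragments of a transcript are divided by its length and by the size of the library, so that genes can be set side by side within a library. Fragment counts are not given, and the depth of the libraries is therefore unknown. In whole tissue, fewer cells of a type and less RNA per cell cannot be told apart.

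In this pathway citrate leaves the mitochondrion, ATP citrate lyase splits it to acetyl-CoA, the acetyl-CoA carboxylases make malonyl-CoA, and fatty acid synthase joins these units into palmitate. ELOVL6 then lengthens the chain and the stearoyl-CoA desaturases place a double bond in it. SREBP-1 and ChREBP are the transcription factors that switch the pathway on when insulin and carbohydrate are plentiful, and liver and fat are its best-known sites.

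The labelled tissues carried their own marker genes. The fat libraries had 497 to 1439 summed FPKM of the 5 adipocyte markers (Adipoq, Plin1, Cidec, Lep, Retn), against 1.73 to 59.8 in the other 4 tissues. Ucp1, the uncoupling protein that defines brown fat, had 6552 FPKM in BAT and at most 10.6 elsewhere, while Dio2 stayed at or below 0.387 FPKM in every library. The fat libraries also held transcripts of other tissues. In BAT 4 of the 5 skeletal myofibre markers had a value (Ckm, Myh4, Myh1 and Tnnt3), and all 4 exceeded 1 FPKM. Each of the 3 of them that also had a value in skeletal muscle (Ckm, Myh1, Tnnt3) stood at 1.02% to 3.13% of its level there. In VAT 4 of the 5 epididymis markers exceeded 1 FPKM, with a sum of 2645 FPKM against at most 1.99 in any other library and Lcn9 at 0 in all 7. All 5 hepatocyte markers exceeded 1 FPKM in VAT, with a sum of 606 FPKM, against 384 in kidney and 197 in cortex. Of that sum 295 FPKM were Cyp2e1, at 6.41% of its liver level, while Apoa1 and Ttr stood at 0.701% and 0.850% of theirs. In SCAT all 5 lymphocyte markers (109.8 FPKM in sum) and all 5 pancreatic acinar markers (101.2 FPKM in sum) exceeded 1 FPKM, while the other libraries summed to at most 3.30 and 9.16 FPKM.

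Brown fat had the highest level of most lipogenic genes. Of the 9 genes with a value in all 7 tissues, 8 were highest in BAT (Acly, Acaca, Acacb, Fasn, Elovl6, Scd2, Srebf1 and Thrsp), whereas 15.1% of 14898 protein-coding genes were. These background genes are the ones that reached 1 FPKM in any tissue and had a value in all of them. The remaining gene, Mlxipl, was highest in liver, as were 15.5% of protein-coding genes. The tenth gene, Scd1, had no usable value in any fat depot. In BAT the log2(FPKM + 0.1) of Acaca, Fasn, Elovl6 and Thrsp was at least 2, or 4-fold, above every other tissue, a rule that 0.738% of protein-coding genes met. When the locus on the annotated strand was used for every gene, Scd2 moved from BAT to cortex and 7 genes were highest in BAT (15.9% of protein-coding genes on that strand), while the same 4 met the 4-fold rule (0.712%).

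**Figure D1:**
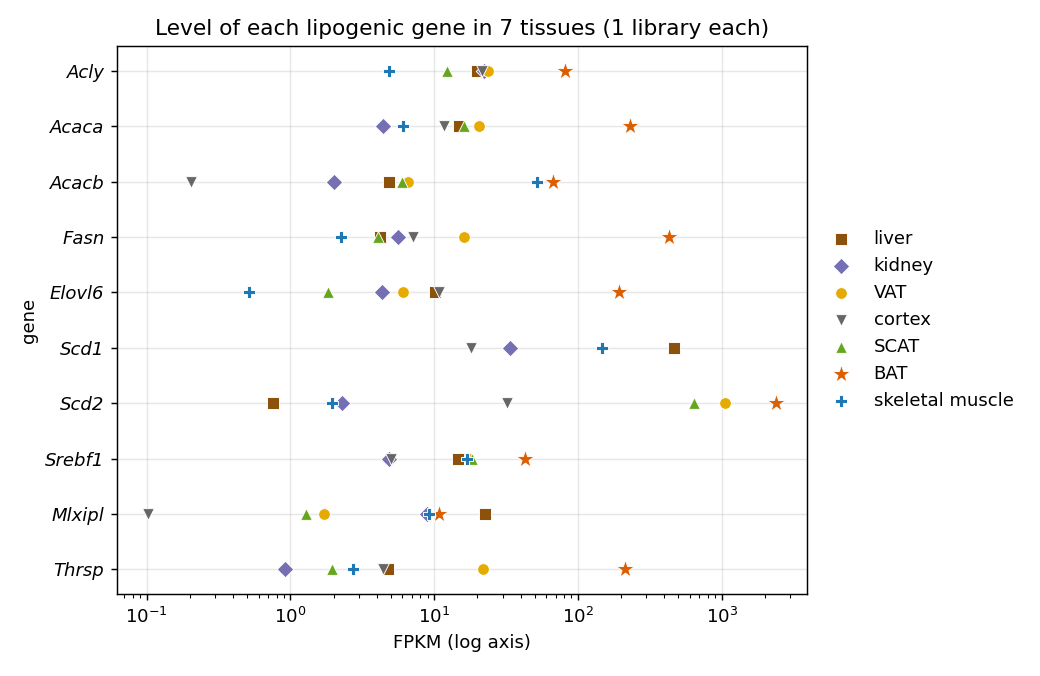
FPKM (x axis, log scale) of each lipogenic gene (y axis) in 7 tissues, 1 point per library. BAT (star) lies to the right of every other tissue for 8 genes, liver (square) leads for Mlxipl, and Scd1 has points for 4 tissues only.

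Upstream sequence is shown for 3 genes with contrasting patterns: Fasn and Elovl6, which had large excesses in BAT, and Mlxipl, which was highest in liver. The stretches end before the first base of both the RefSeq and the GENCODE gene model, come from RefSeq's GRCm38.p6 promoter windows, are written 5′ to 3′ on the strand of the gene, and carry in capitals every match to 5 motifs. The motifs, searched on both strands, were the sterol regulatory element TCACNCCAC, the E-box CACGTG, the CCAAT box CCAAT, the GC box GGGCGG and the TATA box TATAAA. Fasn (chr11:120824548-120824797, minus strand) and Mlxipl (chr5:135089640-135089889, plus strand) are shown over 250 bases and Elovl6 (chr3:129532136-129532354, plus strand) over 219.
Fasn: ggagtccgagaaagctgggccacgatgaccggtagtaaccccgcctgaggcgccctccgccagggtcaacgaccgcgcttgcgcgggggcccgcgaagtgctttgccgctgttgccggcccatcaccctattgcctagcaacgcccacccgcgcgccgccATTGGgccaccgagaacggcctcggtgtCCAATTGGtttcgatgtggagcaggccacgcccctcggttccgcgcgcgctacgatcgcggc
Elovl6: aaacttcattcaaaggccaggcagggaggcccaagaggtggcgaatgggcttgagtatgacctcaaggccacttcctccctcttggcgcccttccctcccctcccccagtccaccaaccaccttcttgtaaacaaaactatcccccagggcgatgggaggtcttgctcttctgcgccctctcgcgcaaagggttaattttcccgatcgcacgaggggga
Mlxipl: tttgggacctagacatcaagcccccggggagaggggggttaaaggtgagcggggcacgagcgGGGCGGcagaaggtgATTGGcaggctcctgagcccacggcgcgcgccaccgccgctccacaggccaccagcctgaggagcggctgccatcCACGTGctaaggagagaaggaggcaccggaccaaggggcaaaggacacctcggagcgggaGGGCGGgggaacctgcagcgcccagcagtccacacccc
The Fasn stretch held 3 matches to the CCAAT box, at 90, 62 and 59 bases before the start, the last 2 of which overlap. The Elovl6 stretch held no match to any of the 5 motifs. The Mlxipl stretch held 1 E-box 98 bases before the start, 1 CCAAT box on the opposite strand and 2 GC boxes. Of 32851 promoter windows of 250 bases, 33.8% held a CCAAT box, 32.7% a GC box, 12.4% a TATA box, 6.02% an E-box and 1.05% the sterol regulatory element. Across the 11 windows listed for 8 of the genes, the sterol regulatory element was found once, in a further Mlxipl window whose start lies 17001 bases from the annotated one, and the E-box once, in the Mlxipl window shown. Acly held 4 GC boxes, and Thrsp held 2 CCAAT boxes in a window whose start lies 180 bases from the annotated one. These matches describe letters only. Scd1 and Scd2 are not in the promoter table.

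Acly encodes ATP citrate lyase, which supplies cytosolic acetyl-CoA (ENSMUSG00000020917.17, GRCm38 chromosome 11, 100476353 to 100528000, minus strand). Its level was 80.8 FPKM in BAT, 23.7 in VAT, 22.3 in kidney, 21.6 in cortex, 19.7 in liver, 12.2 in SCAT and 4.81 in skeletal muscle. The range was the second narrowest of the 9 genes measured everywhere, 16.8-fold from highest to lowest, and VAT and liver, with kidney and cortex between them, lay 1.20-fold apart. BAT exceeded the next tissue 3.41-fold and liver 4.10-fold. Both SCAT and skeletal muscle were below liver, kidney and cortex, so Acly did not separate the fat depots from the other tissues.

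Acaca encodes acetyl-CoA carboxylase 1, the cytosolic enzyme whose malonyl-CoA feeds fatty acid synthase (ENSMUSG00000020532.18, chromosome 11, 84129672 to 84401651, plus strand). Its level was 228.6 FPKM in BAT, 20.5 in VAT, 16.0 in SCAT, 14.8 in liver, 11.7 in cortex, 6.11 in skeletal muscle and 4.41 in kidney. All 3 fat depots stood above all 4 other tissues, but SCAT exceeded liver by no more than 1.08-fold. The BAT level was 11.2 times that of VAT and 51.9 times that of kidney. Of the 9413 stretches of 101 bases, the read length, in the longest Acaca transcript, 42.7% also occur in the processed pseudogene Gm5182, so fragments from these stretches could have been split between both genes.

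Acacb encodes acetyl-CoA carboxylase 2, which sits at the mitochondrial outer membrane, where its malonyl-CoA restrains the uptake of fatty acids for oxidation (ENSMUSG00000042010.16, chromosome 5, 114146535 to 114250761, plus strand). Its level was 66.6 FPKM in BAT and 51.6 in skeletal muscle. It was 6.61 FPKM in VAT, 5.97 in SCAT, 4.85 in liver, 2.02 in kidney and 0.203 in cortex. BAT and skeletal muscle lay 1.29-fold apart, and the next tissue, VAT, was far below both. Acacb in BAT was 129% of its level in skeletal muscle, and the myofibre gene Ckm in BAT was 1.93% of its level there. The part of myofibre transcripts in the BAT level of Acacb was not tested.

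The balance of both carboxylases differed widely. As a share of the summed FPKM of Acaca and Acacb, Acacb made up 22.6% in BAT, 24.4% in VAT, 24.6% in liver, 27.1% in SCAT and 31.5% in kidney. In skeletal muscle its share was 89.4%, and Acacb was there 8.44 times Acaca. In cortex its share was 1.70%, and Acaca was 57.7 times Acacb. Thus 5 tissues lay between 22.6% and 31.5%, with muscle and cortex far to either side. The shares were the same on the annotated strand, where both loci used already lie.

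**Figure D2:**
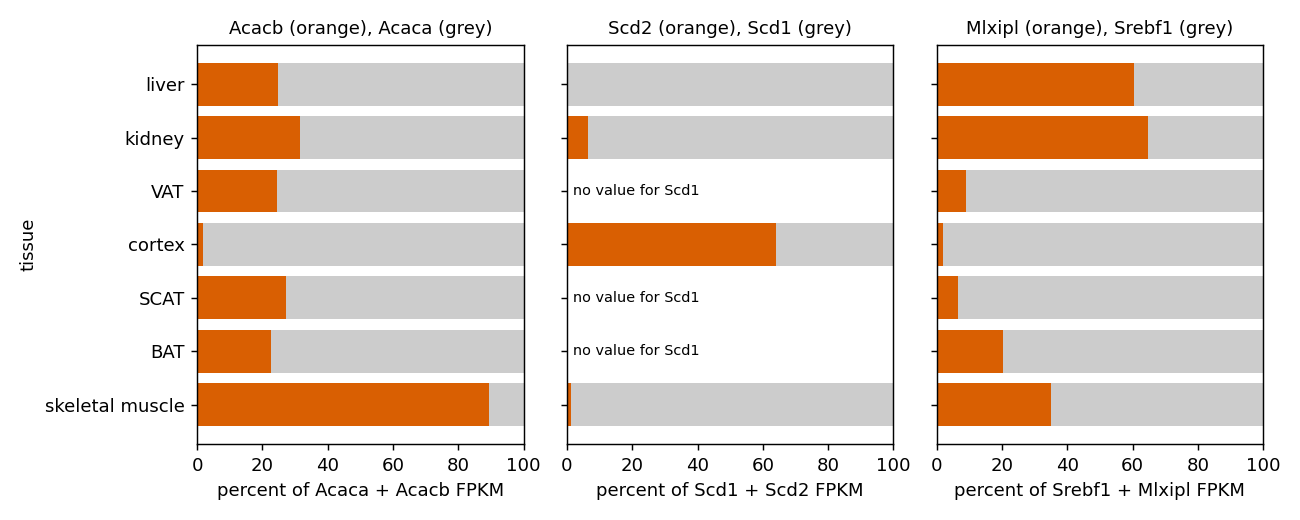
Share (x axis, percent of the summed FPKM of 2 genes) of Acacb, Scd2 and Mlxipl (orange) against Acaca, Scd1 and Srebf1 (grey) in each library (y axis). Acacb takes 89.4% in skeletal muscle and 1.70% in cortex, and the Scd panel is blank for the 3 fat depots, where Scd1 has no value.

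Fasn encodes fatty acid synthase (ENSMUSG00000025153.9, chromosome 11, 120805846 to 120824547, minus strand; the upstream sequence is shown above). Its level was 427 FPKM in BAT, 16.1 in VAT, 7.18 in cortex, 5.60 in kidney, 4.21 in liver, 4.07 in SCAT and 2.25 in skeletal muscle. BAT stood 26.6-fold above VAT, the largest step between the first and the second tissue among the 9 genes. The other 6 tissues spanned 2.25 to 16.1 FPKM, and liver lay below cortex and kidney. Fasn ranked 135th of the protein-coding genes in BAT and 6883rd in liver. The fat depots did not all exceed the other tissues, because SCAT lay below cortex, kidney and liver.

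Elovl6 encodes the elongase that turns palmitate into stearate (ENSMUSG00000041220.10, chromosome 3, 129532355 to 129638495, plus strand). Its level was 194 FPKM in BAT, 10.8 in cortex, 10.2 in liver, 6.03 in VAT, 4.34 in kidney, 1.83 in SCAT and 0.513 in skeletal muscle. BAT was 18.0 times cortex, and both white depots lay below cortex and liver. From highest to lowest tissue the range was 379-fold. These levels are those of the locus on the strand opposite to the gene. On the annotated strand Elovl6 had 68.3 FPKM in BAT, 3.59 in liver and 2.68 in cortex, so liver came second.

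Scd1 and Scd2 encode stearoyl-CoA desaturases, which convert stearate and palmitate to oleate and palmitoleate, and lie close together on chromosome 19 (Scd1, ENSMUSG00000037071.3, 44394455 to 44407879, minus strand; Scd2, ENSMUSG00000025203.6, 44293674 to 44306864, plus strand). Scd1 had 464 FPKM in liver, 147 in skeletal muscle, 33.4 in kidney and 18.1 in cortex at its opposite-strand locus. Its annotated-strand locus had 98.8 FPKM in liver, 38.6 in skeletal muscle, 8.03 in kidney and 3.44 in cortex. In VAT, SCAT and BAT both Scd1 loci carried a 0 with the status LOWDATA in every comparison of that tissue. The same status and 0 were given to 83 loci, among them Alb in liver and Myh4 in skeletal muscle, defining transcripts of those tissues, so the 0 was treated as a missing value and not as a level. Scd2 had 2371 FPKM in BAT, 1049 in VAT and 639 in SCAT. In cortex Scd2 had 31.9 FPKM, in kidney 2.28, in skeletal muscle 1.94 and in liver 0.754.

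Thus Scd2 was the one gene for which every fat depot was at least 2-fold above every other tissue, a rule met by 0.43% of protein-coding genes, with SCAT 20.0 times cortex. It ranked 7th in BAT, 10th in SCAT and 11th in VAT among protein-coding genes, and 10997th in liver. Where both desaturases had a value, Scd2 made up 0.162% of their summed FPKM in liver, 1.30% in skeletal muscle, 6.37% in kidney and 63.9% in cortex. Liver and cortex were therefore at opposite ends, with Scd1 at 616 times Scd2 in liver and Scd2 at 1.77 times Scd1 in cortex. These values use the opposite-strand loci of both genes. On the annotated strand the share of Scd2 was 0.249% in liver, 2.36% in skeletal muscle, 10.3% in kidney and 79.9% in cortex. Both transcripts have sequence in common: 47 of the 5355 stretches of 101 bases in Scd2 also occur in Scd1. The large fat levels of Scd2 come from the locus on the strand opposite to the gene, as described below. The bounds of that locus, 44257556 to 44309327, reach beyond both ends of the gene. On the annotated strand 0 of the lipogenic genes met the 2-fold rule.

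Srebf1 encodes SREBP-1, the sterol regulatory element-binding protein that acts on most of the enzymes above (ENSMUSG00000020538.15, chromosome 11, 60199089 to 60222581, minus strand). Its level was 42.8 FPKM in BAT, 18.3 in SCAT, 17.4 in VAT, 17.0 in skeletal muscle, 14.7 in liver, 4.98 in cortex and 4.81 in kidney. All 3 fat depots exceeded the other 4 tissues, but SCAT, VAT and skeletal muscle lay within 1.08-fold of each other. Its range of 8.90-fold was the narrowest of the 9 genes.

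Mlxipl encodes ChREBP, the carbohydrate response element-binding protein (ENSMUSG00000005373.13, chromosome 5, 135089890 to 135138382, plus strand). Its level was 22.6 FPKM in liver, 10.9 in BAT, 9.15 in skeletal muscle, 8.86 in kidney, 1.70 in VAT, 1.27 in SCAT and 0.103 in cortex. Liver was 2.08 times BAT, and the white depots lay below every tissue but cortex. The bounds given for its locus, and for that of Srebf1, also span neighbouring genes that the table lists as loci of their own.

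Set against each other, Mlxipl made up 64.8% of the summed FPKM of both factors in kidney and 60.5% in liver, 35.0% in skeletal muscle and 20.2% in BAT. It made up 8.90% in VAT, 6.50% in SCAT and 2.02% in cortex. Mlxipl therefore exceeded Srebf1 in liver and kidney, and Srebf1 exceeded Mlxipl in the other 5 libraries.

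Thrsp encodes the thyroid hormone responsive protein Spot 14, which is induced together with the lipogenic enzymes (ENSMUSG00000035686.8, chromosome 7, 97412938 to 97417730, minus strand). Its level was 213 FPKM in BAT, 21.8 in VAT, 4.77 in liver, 4.39 in cortex, 2.71 in skeletal muscle, 1.95 in SCAT and 0.922 in kidney. BAT exceeded VAT 9.79-fold, and VAT and SCAT lay far apart. The locus used is on the strand opposite to the gene, and its bounds take in the neighbouring gene Ndufc2, which the table lists separately.

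The tissues were then compared in pairs and groups on the log2(FPKM + 0.1) scale, with 2-fold as the mark and with no test, since each tissue has 1 library. Against liver, BAT was at least 2-fold higher for 8 of the 9 genes, as for 24% of 14904 protein-coding genes. The differences ran from 1.53 for Srebf1 to 11.44 for Scd2, and Mlxipl was lower by 1.05. On the annotated strand the same 8 genes passed 2-fold, as did 23.6% of protein-coding genes, but Scd2 differed by 3.21 and Thrsp by 3.58 in place of 5.45, which left Fasn (6.63) at the top. The median over the 9 genes was 3.94, against 0.17 over all protein-coding genes.

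Against the mean of VAT and SCAT, BAT was at least 2-fold higher for 9 of 9 genes, as for 27.8% of 14924 protein-coding genes. The smallest differences were those of Srebf1 (1.26) and Scd2 (1.53), and the largest those of Elovl6 (5.82), Fasn (5.70) and Thrsp (4.99). The median was 3.39, against 0.34 over all protein-coding genes. Dividing FPKM by a median-ratio size factor per library lowered the median over all protein-coding genes by 0.65, to -0.31, and that of the lipogenic genes to 2.63, and left 7 of 9 genes past 2-fold, without Scd2 and Srebf1, as 12.8% of protein-coding genes then were. On the annotated strand 8 of 9 were past 2-fold, as were 29.1% of protein-coding genes, and Scd2 differed by 0.75. The myofibre markers summed to 573 FPKM in BAT, 53.5 in VAT and 73.6 in SCAT over the 4 with a value. Epididymis markers summed to 2645 FPKM in VAT and 0 in BAT. Lymphocyte and acinar markers summed to 109.8 and 101.2 FPKM in SCAT, against 0.444 and 6.27 in BAT. Adipocyte markers summed to 1439 FPKM in BAT, 1277 in VAT and 497 in SCAT. The part of any of these in this difference was not tested.

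**Figure D3:**
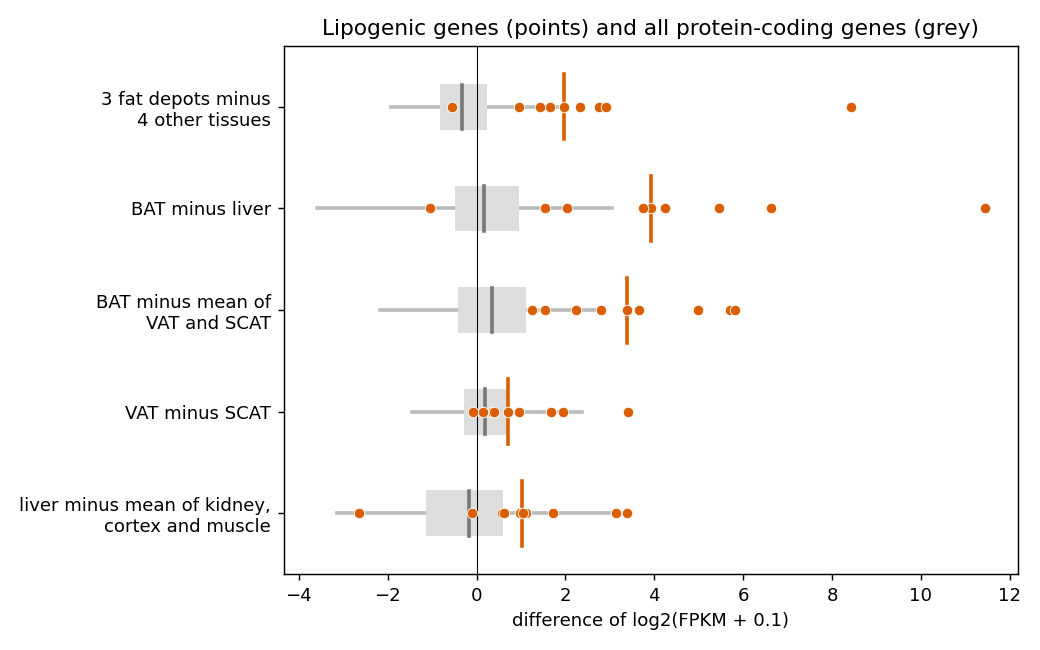
Differences between tissues (x axis, difference of log2(FPKM + 0.1)) for 5 contrasts (y axis), where orange points are the lipogenic genes with their median as an orange line, and the grey box and grey line give the middle 50% and middle 90% of protein-coding genes with their median in dark grey. The orange median lies at 3.94 for BAT minus liver and at 0.71 for VAT minus SCAT.

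Between the white depots, VAT was at least 2-fold higher than SCAT for Fasn, Elovl6 and Thrsp, 3 of 9 genes, as for 16.5% of protein-coding genes. It was 2-fold lower for 0 of 9, as for 7.56%. The difference was 3.41 for Thrsp, 1.96 for Fasn and 1.67 for Elovl6, and lay between -0.07 for Srebf1 and 0.95 for Acly in the other 6 genes. Thrsp differed by 1.29 and Scd2 by 1.72 on the annotated strand, so that 4 of 9 genes passed 2-fold, as did 15.3% of protein-coding genes. Adipocyte markers summed to 1277 FPKM in VAT and 497 in SCAT. The lymphocyte and acinar markers of SCAT and the epididymis and hepatocyte markers of VAT move with this contrast, and their part in it was not tested.

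Against the mean of kidney, cortex and skeletal muscle, liver was at least 2-fold higher for 5 of the 10 genes, as for 18.3% of 14901 protein-coding genes. These were Scd1 (3.38), Mlxipl (3.15), Elovl6 (1.73), Acaca (1.11) and Thrsp (1.06). On the annotated strand the count was 4, where 18.6% of protein-coding genes passed, because Thrsp turned to -0.64, with 3.23 FPKM in liver below kidney, cortex and skeletal muscle. Scd2 was lower by 2.65, and 27.2% of protein-coding genes were at least 2-fold lower. Fasn differed by -0.09, Acly by 0.57, Acacb by 0.62 and Srebf1 by 0.98. The desaturases thus lay at both ends of this contrast.

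Taking the mean of the 3 fat depots against the mean of the 4 other tissues, 7 of 9 genes were at least 2-fold higher in fat, as were 11.9% of protein-coding genes, and 0 of 9 were 2-fold lower, as were 19%. The exceptions were Acly (0.96) and Mlxipl (-0.56). With the annotated strand 5 of 9 were 2-fold higher, without Scd2 and Thrsp, as were 11.2% of protein-coding genes. The stricter rule that every fat depot exceeds every other tissue held for Acaca, Scd2 and Srebf1, 3 of 9, and for 3.27% of protein-coding genes. Scd2 lost this call on the annotated strand, which left 2 of 9 (3.21% of protein-coding genes). The SCAT library decided the count: without it 6 of 9 genes met the rule, with Acly, Fasn and Thrsp added, as did 4.66% of protein-coding genes, and the median difference between fat and other tissues moved from 1.96 to 3.03. Leaving out a depot can add genes to this rule but not remove one, and without the VAT library the count stayed at 3, where 4.48% of protein-coding genes met the rule. SCAT had the lowest adipocyte marker sum of the fat depots (497 FPKM, against 1277 in VAT and 1439 in BAT). It also held lymphocyte and acinar markers (109.8 and 101.2 FPKM in sum), and the part of these in the count was not tested.

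Of the 10 genes, 7 have a locus on each strand (Acly, Acaca, Fasn, Elovl6, Scd1, Scd2 and Thrsp), and for Elovl6, Scd1, Scd2 and Thrsp the locus with the highest FPKM, used above, is on the strand opposite to the gene. The table has no strand column, so strand was read from the order of its loci. Of 14928 protein-coding genes, 51.9% have loci on both strands and 79.6% have their highest locus on the annotated strand. For 5 of the 7 genes both loci gave nearly the same tissue pattern. The opposite locus stood at 5.46% to 12.1% of the annotated one for Acly, 8.04% to 11.0% for Acaca and 38.9% to 48.4% for Fasn over the 7 tissues. For Elovl6 it was 2.84 to 4.02 times the annotated one, and for Scd1 3.81 to 5.25 times in the 4 tissues with a value. These ratios varied far less between tissues than those of Scd2 and Thrsp, described next, and the highest tissue was the same on both strands. Tissues at close levels could change places, as liver and cortex did for Elovl6.

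Scd2 and Thrsp were different. The opposite-strand locus of Scd2 was 2.08 to 3.05 times the annotated-strand locus in liver, kidney, cortex and skeletal muscle, but 312 times in VAT, 671 times in SCAT and 763 times in BAT. On the annotated strand Scd2 had 13.7 FPKM in cortex, 3.37 in VAT, 3.11 in BAT, 0.952 in SCAT, 0.933 in skeletal muscle, 0.922 in kidney and 0.247 in liver. Cortex then led, and the log2 difference between fat and other tissues was 0.60 in place of 8.43. The opposite-strand ratio of Scd2 was high in the same 3 libraries in which Scd1 had no value, and the cause of either was not tested. On its annotated strand Thrsp had 39.6 FPKM in BAT, 8.43 in skeletal muscle, 4.58 in kidney, 4.06 in VAT, 3.40 in cortex, 3.23 in liver and 1.60 in SCAT. BAT still led by more than 4-fold, but skeletal muscle and kidney now came before VAT, and the difference between fat and other tissues was 0.49 in place of 2.92.

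**Figure D4:**
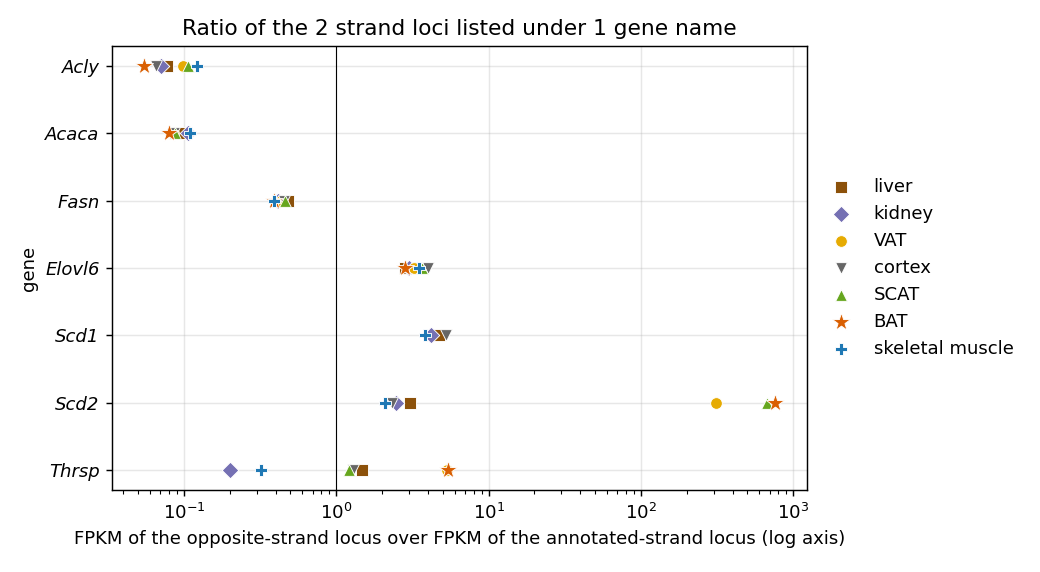
FPKM of the opposite-strand locus divided by that of the annotated-strand locus (x axis, log scale) for the 7 genes with both (y axis), 1 point per library. The points of Acly, Acaca, Fasn, Elovl6 and Scd1 lie close together, while Scd2 reaches 763 in BAT and Thrsp runs from 0.202 in kidney to 5.39 in BAT.

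The pathway around these genes was described with 61 related genes in 7 lists, chosen with earlier results of these data known, of which 57 had at least 1 FPKM in any tissue and a value in all. For 4 of the 57 (Prkaa1, Prkaa2, Trib3 and Elovl7) the locus used lies on the strand opposite to the gene. BAT was the highest tissue for 28 of the 57, as for 15.1% of protein-coding genes. It was at least 2-fold above the mean of VAT and SCAT for 37 and below it for 6, where 27.8% and 14.9% of protein-coding genes were. After scaling by size factors these became 23 highest and 26 at least 2-fold above, against 9.84% and 12.8% of protein-coding genes scaled likewise. The lists differed among themselves. All 4 genes of citrate and acetyl-CoA supply and all 6 of NADPH supply were at least 2-fold above white fat in BAT, with medians of 2.95 and 2.69. In the first list the citrate carrier Slc25a1 had 125 FPKM in BAT and 66.6 in liver. Cs, citrate synthase, had 190.4 in BAT and 146.4 in skeletal muscle. Acss2, which makes acetyl-CoA from acetate, and Aco1, a cytosolic aconitase, were highest in kidney, at 79.6 and 65.9 FPKM. Among the NADPH enzymes, G6pdx of the pentose phosphate pathway had 62.6 FPKM in BAT, 34.8 in VAT and 15.1 in SCAT, above all 4 other tissues (at most 7.26). Pgd, Tkt and Taldo1 of the same pathway were highest in BAT, at 53.0, 338 and 509 FPKM.

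The genes listed for the use of new fatty acids in triglycerides were also higher in BAT than in white fat and liver. All 8 with a value were at least 2-fold above white fat and above liver, as were 27.8% and 24% of protein-coding genes. BAT was the highest tissue for 6 of them, as for 15.1% of protein-coding genes. Lpin1 was highest in skeletal muscle (129.9 FPKM, against 60.7 in BAT) and Mogat1 in kidney (90.8 FPKM, against 7.99 in BAT). Agpat2 had 473 FPKM in BAT against 52.8 in liver, Dgat1 163 against 15.9, and Plin1, a lipid droplet coat protein, 413 against 0.0193. Pnpla3 had 9.99 FPKM in BAT and 0.0617 in liver. All 5 genes of mitochondrial fatty acid synthesis, a separate route, were also 2-fold above white fat in BAT, against the same 27.8%. Among them were Mecr (182 FPKM in BAT), Ndufab1 (677, with 350 in skeletal muscle), Mcat (5.43) and Oxsm (1.86).

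The list of other elongases and desaturases, which also held Hsd17b12, Hacd3 and Tecr of the later steps of elongation, was divided. Of its 11 genes that reached 1 FPKM, 4 were at least 2-fold above white fat in BAT (Elovl3, Elovl5, Hsd17b12 and Tecr). Another 5 were at least 2-fold below it (Elovl2, Elovl7, Fads1, Fads2 and Fads3). Of protein-coding genes 27.8% and 14.9% were, and the median difference of the list was -0.81. BAT was the highest tissue for 2 of them (Elovl3 and Hsd17b12) and liver for 5, against 15.1% and 15.5% of protein-coding genes. Elovl2 had 106.9 FPKM in liver and 0.0240 in BAT, Elovl5 240.0 and 30.3, Hacd3 57.4 and 7.87, and Fads2 189.8 and 2.15. Elovl7 was highest in kidney at 15.0 FPKM, and at 5.44 on its annotated strand. For Elovl3, itself a brown fat marker, the log2 difference between BAT and white fat was 9.54, against 5.82 for Elovl6, with 165 FPKM in BAT, 65.6 in liver and at most 0.391 in the rest. The desaturase paralogs Scd3 and Scd4 did not reach 1 FPKM in any tissue, with 0.865 in BAT and 0.0304 in cortex as their highest values.

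Of the partners and regulators of the enzymes, 5 of 8 were at least 2-fold above white fat in BAT (Mlycd, Prkaa1, Prkaa2, Prkab1 and Prkag1), as were 27.8% of protein-coding genes. After scaling by size factors 2 of the 8 were, Mlycd and Prkaa2, against 12.8% of protein-coding genes. Mid1ip1, the paralog of Thrsp, was highest in VAT at 5.03 FPKM and had 1.57 in BAT, so it did not share the BAT peak of Thrsp. The AMP kinase subunits Prkaa2 and Prkab2 were highest in skeletal muscle, at 90.6 and 55.2 FPKM. The annotated-strand locus of Prkaa2 had 17.1 FPKM there, again its highest level. Mlycd, which breaks malonyl-CoA down, had 18.9 in BAT, and the opposite-strand locus of Trib3 had 2.14 in liver and 2.13 in BAT, against 1.51 and 0.905 on the annotated strand. Among 15 response factors and partners, 6 were highest in BAT and 5 in liver, against 15.1% and 15.5% of protein-coding genes. Pparg, the master factor of fat cells, had 158 FPKM in BAT, 49.8 in VAT, 41.4 in SCAT and at most 9.69 elsewhere. Srebf2, the paralog of Srebf1, was highest in cortex at 4.62 FPKM, and Mlxip, the paralog of Mlxipl, in skeletal muscle at 4.93. Cebpa, another factor of fat cells and liver, had 1.62 FPKM in BAT and 1.53 in liver. The liver pyruvate kinase gene Pklr, a target of ChREBP, and the SREBP-retaining protein Insig2 were highest in liver, at 22.9 and 226 FPKM, as Mlxipl was. Insig1, the other Insig gene of the list, was highest in BAT, at 56.7 FPKM against 8.06 in liver.

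**Figure D5:**
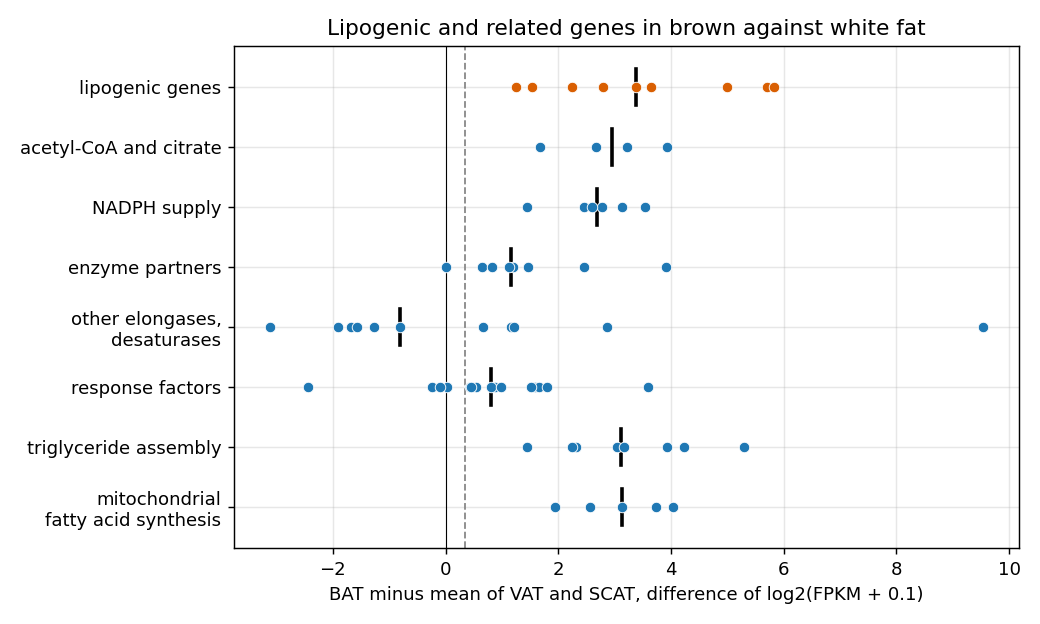
BAT minus the mean of VAT and SCAT (x axis, difference of log2(FPKM + 0.1)) for the lipogenic genes (orange) and 7 lists of related genes (blue), with the median of each as a black line and that of all protein-coding genes, 0.34, as a dashed line. The lipogenic genes lie at 1.26 or above, and the list of other elongases and desaturases has a median of -0.81.

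The likeness of profiles was measured as the root mean square difference over 7 tissues between log2(FPKM + 0.1) values centred on their own mean, so a smaller value means a more similar profile. Against Fasn, among 10772 other protein-coding genes that reached 5 FPKM in any tissue, Thrsp ranked 9th (0.95), Acaca 14th (1.00), Elovl6 20th (1.06) and Acly 64th (1.45). Srebf1 ranked 399th (1.93), Acacb 6763rd (2.64), Mlxipl 8206th (2.99) and Scd2 9083rd (3.35). Thrsp, Elovl6 and Scd2 enter here with their opposite-strand loci. With the annotated strand for every gene, among 9952 others, Elovl6 ranked 12th (1.00), Acaca 13th (1.00), Acly 59th (1.45) and Thrsp 77th (1.51), while Scd2 ranked 2383rd (2.26). The 5 genes closest to Fasn were 1700018G05Rik (0.70), Pla2g2e (0.78), Adam12 (0.79), Cyp2b10 (0.85) and Dhrs9 (0.89). They had 6.01 (Pla2g2e) to 24.0 FPKM (Dhrs9) in BAT, through which alone they reached 5 FPKM, and 0 to 1.52 FPKM in the other tissues, where the pseudocount of 0.1 bears on the likeness.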

How the data were processed

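RNA-Seq of 7 mouse tissues, 1 library each, was analysed. Per the labels, rRNA-depleted RNA was made into directional libraries and read as paired ends of 101 bases. According to the methods of the study and the submitters' processing notes, the authors trimmed reads with flexbar, removed rRNA reads with Bowtie2 2.2.9, aligned to mm10/GRCm38 with STAR 2.6.0c and assembled and compared transcripts with Cufflinks 2.2.1. The deposited table is the cuffdiff output per gene, and the authors' FPKM in it cover 94339 loci. Its fold changes, test statistics and p-values are the authors' comparisons and were not used. The table holds no fragment counts, so depth and the precision it gives are unknown. The library-type and scaling settings of cuffdiff are not given in the sources used here.

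The 10 genes were found by name. The 151 loci that cuffdiff marked FAIL were dropped, the locus with the highest maximum FPKM was taken where a name had several, and a 0 with the status LOWDATA was treated as missing. Coordinates and biotypes come from GENCODE vM21 (GRCm38). Differences are of log2(FPKM + 0.1), which understates those of low values, and the backgrounds are the protein-coding genes that reached 1 FPKM in any tissue. No test was run, because no tissue has a replicate. Named are all 10 genes, their paralogs, up to 4 genes per related list with the largest absolute fat difference, the 5 genes most like Fasn, and marker genes that bear on a result. Further related genes are named where they make up a count or go the other way. The genes and lists were chosen with earlier results of these data known, and 1 related gene is not reported here. The rules were also run on simulated, nearly flat profiles with some genes raised well past the thresholds, which checks the calculation only. Alternatives covered the pseudocount, minimum FPKM, scaling, failed loci, several loci, strand, LOWDATA values and left-out libraries. Python 3.11.15, pandas 2.3.3, NumPy 2.4.6 and matplotlib 3.10.9 were used.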

Additional observations from a re-analysis of the deposited data

How the results depend on the processing

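No value has a replicate error, so a count was taken as unchanged within 1.5 times, a log2 difference within 0.585 and a share within both 10 percentage points and 1.5 times. Left out of the tally are 50 values that could not move, because the same FPKM entered them or because leaving out a white depot cannot end a call in BAT. Of 100 other values of counts, medians and shares under 10 alternatives, 90 were unchanged, 10 moved and 0 reversed. Of 77 differences of single genes over the 5 contrasts, 58 were unchanged, 18 moved and 1 reversed, Thrsp between liver and the mean of kidney, cortex and skeletal muscle (-0.64 on the annotated strand). Without the SCAT library, 6 genes had every fat depot above every other tissue (3 with it) and 3 had them 2-fold above (1 with it), against 4.66% and 0.893% of protein-coding genes (3.27% and 0.43% with it), and the median fat difference was 3.03. On the annotated strand 0 genes had every fat depot 2-fold above, and the share of Scd2 was 79.9% in cortex, 10.3% in kidney, 2.36% in skeletal muscle and 0.249% in liver. The median difference between BAT and white fat was 2.63 with size factors, which lowered BAT and raised VAT and SCAT, and 2 of the partners and regulators were then 2-fold above white fat in BAT (5 without). The alternatives for the counts highest in BAT and for those past 2-fold or 4-fold in BAT, VAT, liver or the mean of the fat depots, related genes included, and for single genes in contrasts other than fat against other tissues, were chosen after seeing the data, apart from the 4-fold count over any tissue. With LOWDATA values kept as 0, the share of Scd2 in the fat depots would follow from the 0 alone and is not given. No paired analysis was possible because each tissue has 1 library.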
